A study of Mus musculus with 2 samples.

Results

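The aryl hydrocarbon receptor (AHR), its DNA-binding partner, its repressors and its best known target genes were described in ureter explants treated with cyclopamine, a small-molecule inhibitor of SMO, the membrane protein that passes on the SHH signal. The set held 10 genes (Ahr, Arnt, Ahrr, Tiparp, Cyp1a1, Cyp1a2, Cyp1b1, Nqo1, Ugt1a6b and Aldh3a1) of 30011 gene names on the array, and 17 of its 39429 probes. The genes were chosen by their place in the pathway with their ratios in this comparison already known, so their ratios are given as a description and carry no test. All probes whose gene name on the array was one of the 10 were taken, and the probe of each gene that was brightest over the 4 channels served as its main value. Gene names from RefSeq gave the same symbol for all 17 probes.

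Ureters came from wildtype NMRI mice at birth (P0), and were cultured for 18 h either with 10 µM cyclopamine or as a control with DMF at a dilution of 1:1000. Each of 2 two-colour arrays took RNA from pools of ureters, with a cyclopamine pool against a control pool. Replicate 1 held female pools with cyclopamine in the red channel, and replicate 2 held male pools with the dyes swapped. Sex, dye orientation and replicate therefore cannot be told apart, and nothing in the labels says whether pools shared litters, so the spread given is that between these arrays. The study's methods name ethanol as the solvent of cyclopamine, whereas the labels name DMF for the control, so an effect of the solvent and one of cyclopamine cannot be told apart where the solvents differed. A source name of the treated channel gives the WNT secretion inhibitor IWP-2, while title, treatment entry and protocol give cyclopamine, and the text follows the latter.

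As background, AHR is a ligand-activated transcription factor of the bHLH-PAS family. Unbound, it rests in the cytoplasm with HSP90 and p23. After binding a ligand such as a planar aromatic compound or a tryptophan metabolite, it moves to the nucleus, pairs with ARNT and binds DNA elements with the core GCGTG. Its targets include cytochrome P450 enzymes, which oxidise the ligand, conjugating enzymes, and a pair of repressors, AHRR and TIPARP, which dampen the receptor.

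On both arrays the intensities were of the Agilent processed signal, which was background-subtracted and balanced between dyes within the array but not scaled between arrays. Replicate 1 was the brighter array, its control channel having an upper quartile of 3337 against 627.8 for replicate 2, so levels are compared only within an array. Ratios of the 19398 tested genes had a median of -0.0026 on the log2 scale on replicate 1 and -0.00020 on replicate 2, and ratios on replicate 1 spread more widely (SD over tested probes 0.457 against 0.296). The SHH pathway was read as a check of the treatment. Gli1, Ptch1 and Hhip, all transcribed in response to SHH, had mean log2 ratios of -1.96 ± 0.18, -1.31 ± 0.25 and -1.15 ± 1.19 (SD, n = 2), and limma called each lower (adjusted p at most 0.00683). In bulk tissue of this kind, fewer cells of a type and less RNA per cell cannot be told apart.

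Cyp1a1, Ahrr, Tiparp, Cyp1b1, Nqo1 and Ugt1a6b were higher with cyclopamine on both arrays, Ahr was higher on replicate 1 and lower on replicate 2, and Arnt and Aldh3a1 lay near the control. Cyp1a2 was not well above background in any channel. Of the 9 genes that could be measured, 7 had ratios above 0 on both arrays, against 28.6% of all tested genes (28.9% were below 0 on both). The study kept reduced genes by a control intensity over 100 and a limit of 1.5-fold. Here a gene passed, in either direction, with a control over 100 and a change of at least 1.5-fold on each array. Of the 8 genes with enough control intensity on both arrays, 4 passed as higher (Ahrr, Tiparp, Nqo1 and Ugt1a6b) and none as lower, where 0.212% of the 13661 genes with that intensity passed as higher. Because these ratios were known when the genes were picked, the shares are set side by side only to place the values. The median of the mean log2 ratio was 0.68 over the 9 genes and -0.0055 over all tested genes.

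**Figure D1:**
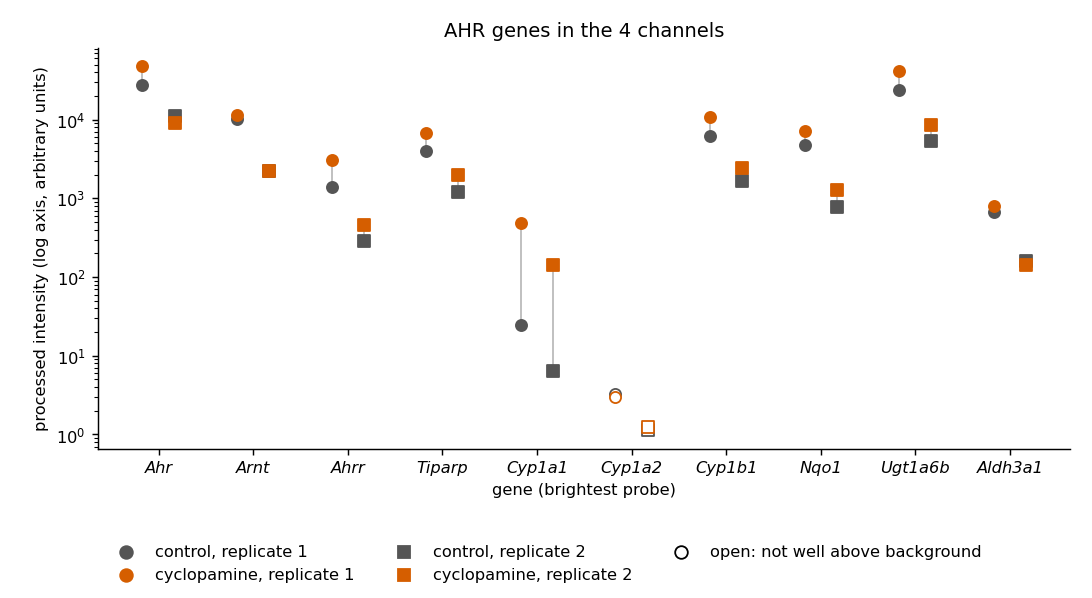
Processed intensity (log axis) of the brightest probe of each gene in the control and cyclopamine channels of both arrays. Grey marks control and orange cyclopamine, circles are replicate 1 and squares replicate 2, and open marks were not well above background. Cyp1a1 has the widest gap between control and cyclopamine, 24.95 against 483 on replicate 1 and 6.42 against 141 on replicate 2.

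Cyp1a1 encodes the P450 enzyme that is the classical readout of AHR activity. Its probe (chr9:57551535-57551594 in build mm9, plus strand) had intensities of 24.95 (control) and 483 (cyclopamine) on replicate 1. On replicate 2 it had 6.42 (control) and 141 (cyclopamine). In both sexes the treated pool thus lay far above its control, 19.4-fold on replicate 1 and 22.0-fold on replicate 2. On the log2 scale the ratios were 4.28 and 4.46, with a mean of 4.37 ± 0.13 (SD, n = 2), and the SD over the 4 spots of the probe was 0.13 on replicate 1 and 0.38 on replicate 2. It ranked 1 among the 19398 tested genes by mean ratio. The control lay below the intensity limit of 100 on both arrays, so the gene did not enter the study's filter although it was beyond the fold limit. All 4 control spots of replicate 1 were well above background, and on replicate 2 a share of 0.75 of them. The size of the ratio depended on the background correction: with normexp and an offset of 50, it was 2.65 on replicate 1 and 2.56 on replicate 2.

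Genes with a similar pair of ratios were looked for across the array. Of the 18907 genes measured in all 4 channels, Cyp1a1 was the only one with a mean log2 ratio over 4, and 2 genes had one over 2. The nearest gene by the distance between pairs of ratios was Mstn (myostatin, an inhibitor of muscle growth), with log2 ratios of 2.51 and 2.34 and a distance of 2.76. Cxcl5, a neutrophil-attracting chemokine, followed with ratios of 1.64 and 1.65, then Cdh16, Serpinb2 and Olfm4 at distances of 4.09 to 4.39. These distances are large on the log2 scale, so no gene had a pair of ratios close to that of Cyp1a1.

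Of the other CYP1 enzymes, Cyp1b1 was higher on both arrays and Cyp1a2 could not be measured. Cyp1b1, which encodes an extrahepatic P450 that also acts on steroids and retinoids, was read by a single probe (chr17:80106547-80106606, mm9, minus strand). Its intensity was 6139 (control) and 10830 (cyclopamine) on replicate 1, and 1649 and 2408 on replicate 2. Both treated channels were higher, by log2 ratios of 0.82 and 0.55 (mean 0.68 ± 0.19, SD, n = 2). The value on replicate 2, 1.46-fold, fell just short of the 1.5-fold limit, so the gene did not pass the filter. Cyp1a2, the P450 typical of liver, read 3.27 and 2.99 on replicate 1 and 1.13 and 1.26 on replicate 2, in the control and cyclopamine channels, at chr9:57528060-57528119 (mm9, minus strand). None of its spots was well above background in any channel, so the data give it no direction.

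The receptor itself had ratios of opposite sign on the arrays. The brighter Ahr probe (chr12:36182724-36182783, mm9, minus strand) had intensities of 27294 (control) and 48035 (cyclopamine) on replicate 1, and 11162 and 9130 on replicate 2. Cyclopamine was thus higher in the female pools and lower in the male pools, with log2 ratios of 0.82 and -0.29 (mean 0.26 ± 0.78, SD, n = 2). The other Ahr probe, 2787 bases away in the transcript, gave 0.82 and -0.09. The arrays differed by more than the mean itself, and on either probe the spots of an array agreed closely (spot SD 0.019 to 0.045). The difference between the arrays was 1.11 for the brighter probe, against a median absolute difference of 0.30 over all tested genes.

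Genes with the pair of ratios most like that of Ahr, over 2 arrays and 18907 genes, were Hectd4, Vwf, Dgkh, Nav1 and Dlg2, at distances of 0.0089 to 0.049. Vwf, von Willebrand factor of endothelial cells, had 0.80 and -0.28. The 3 endothelial markers Pecam1, Cdh5 and Kdr all had the same split, with ratios of 0.54 to 0.88 on replicate 1 and -0.31 to -0.05 on replicate 2. Their summed intensity was 37691 (control) and 60530 (cyclopamine) on replicate 1, and 11302 and 9832 on replicate 2, and no marker was at 0. In all 229 genes had a ratio of at least 0.8 on replicate 1 and of at most 0 on replicate 2. Ratios also ran with gene length on replicate 1. Among the 15241 tested genes with a length in RefSeq (78.6% of tested genes, too few for a check over all genes), the longest 20% had a median log2 ratio of 0.30 on replicate 1 and -0.02 on replicate 2, and the shortest 20% had -0.27 and -0.04. The 5 neighbours of Ahr span 133732 bases or more and Ahr 37011. With the trend removed, their replicate 1 ratios were 0.48 to 0.59 and that of Ahr was 0.69, while replicate 2 stayed at -0.30 for Ahr. By RNA in situ hybridization, the study placed Ahr specifically in the lamina propria at P0. It reported less Ahr with IWP-2 and gave no fold change for Ahr with cyclopamine. The part of endothelial cells, of the lamina propria or of gene length in the ratios of Ahr was not tested.

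ARNT is the common dimer partner of AHR, of its repressor and of the hypoxia factors. The brightest Arnt probe (chr3:95301081-95301140, mm9, plus strand) had intensities of 10319 (control) and 11364 (cyclopamine) on replicate 1, and 2202 and 2226 on replicate 2. The channels of each array were nearly equal, with log2 ratios of 0.14 and 0.02 (mean 0.08 ± 0.09, SD, n = 2). A second probe gave 0.26 and 0.14. The third, nearer the 5′ end of the transcript, was not well above background in either group and was not tested.

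Both repressors of the receptor were higher on both arrays. Ahrr, whose product competes with AHR for ARNT, was read by a probe at chr13:74348566-74348612 (mm9, minus strand) with intensities of 1392 and 3063 on replicate 1 and 291 and 456 on replicate 2, control first. Each treated channel was above its control, by log2 ratios of 1.14 and 0.65 (mean 0.89 ± 0.35, SD, n = 2), or 2.20-fold and 1.57-fold. The dimmer Ahrr probe gave 1.62 and 0.79. Tiparp encodes an enzyme of the poly(ADP-ribose) polymerase family that modifies AHR. Its main probe (chr3:65357710-65357769, mm9, plus strand) read 3983 and 6762 on replicate 1 and 1217 and 1977 on replicate 2, control first. The log2 ratios of 0.76 and 0.70 were almost the same in both sexes (mean 0.73 ± 0.05, SD, n = 2), and the other probe gave 0.79 and 0.60.

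**Figure D2:**
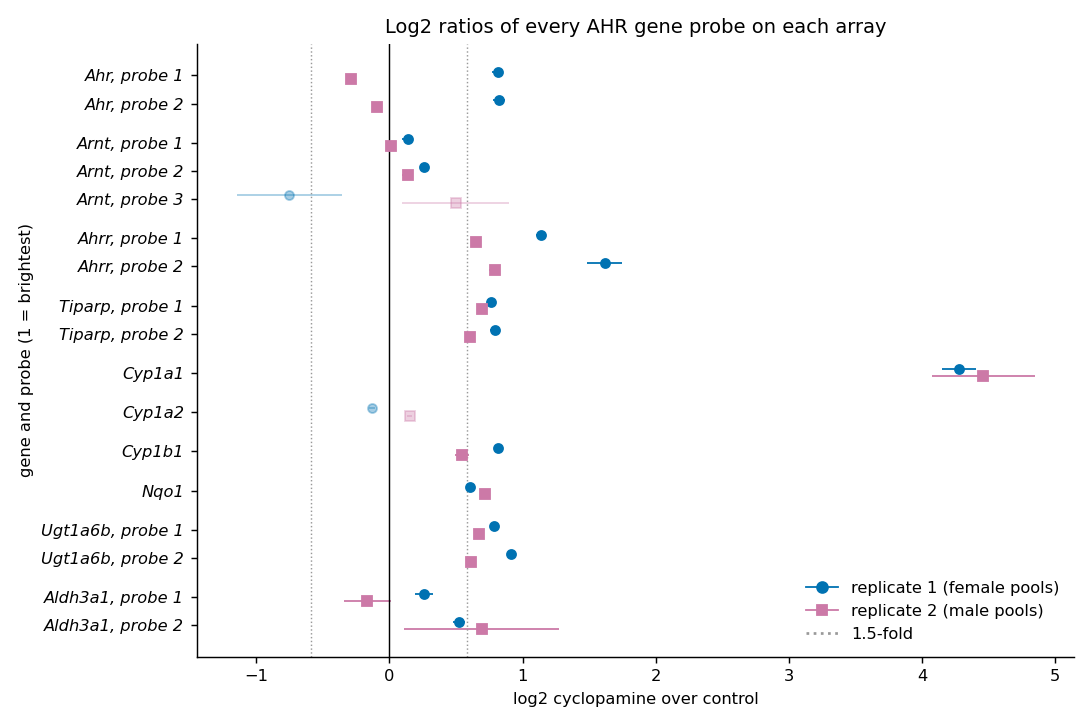
Log2 ratio of cyclopamine over control for each of the 17 probes on replicate 1 (circles) and replicate 2 (squares), with the SD over the spots of the probe as bars and dotted lines at 1.5-fold. Pale marks are the probes that were not tested for want of signal. Both Ahr probes lie right of 0 on replicate 1 and left of it on replicate 2, and both probes of Ahrr, Tiparp and Ugt1a6b lie right of the upper 1.5-fold line on both arrays.

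Enzymes of conjugation and detoxification outside the P450 family made up the remaining targets. Nqo1, a quinone reductase that is a target of AHR as well as of the oxidative stress factor NRF2, was read at chr8:109912440-109912499 (mm9, minus strand). It had intensities of 4738 (control) and 7193 (cyclopamine) on replicate 1, and 784 and 1292 on replicate 2. Both treated pools were above their controls, with log2 ratios of 0.60 and 0.72 (mean 0.66 ± 0.08, SD, n = 2). With 1.52-fold on replicate 1, Nqo1 lay just inside the limit that Cyp1b1 just missed.

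Ugt1a6b encodes a UDP-glucuronosyltransferase from a locus where many alternative first exons share the same downstream exons. Its brightest probe (chr1:90115493-90115552, mm9, plus strand) read 23861 and 41064 on replicate 1 and 5421 and 8644 on replicate 2, control first. The log2 ratios were 0.78 and 0.67 (mean 0.73 ± 0.08, SD, n = 2). This probe lists 4 RefSeq transcripts of the locus, so it cannot tell Ugt1a6b from its neighbours. A second probe, 1357 bases nearer the 5′ end and far upstream in the locus, lists 1 of them (chr1:90004249-90004308, mm9, plus strand), and gave 0.91 and 0.61. The brightest probe of the neighbouring Ugt1a10, also upstream of the shared part (chr1:89952780-89952839, mm9, plus strand), gave 0.55 and 0.43. Both upstream probes were thus above 0 on both arrays. The Ugt1a10 probe lists 2 RefSeq transcripts, and whether the upstream Ugt1a6b probe tells it from Ugt1a6a was not tested. The probe sequences are shown because both lie upstream of the shared part, in lower case and 5′ to 3′ as the array file gives them:
Ugt1a6b upstream probe: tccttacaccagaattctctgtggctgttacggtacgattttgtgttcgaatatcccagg
Ugt1a10 upstream probe: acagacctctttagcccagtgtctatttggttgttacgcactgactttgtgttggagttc
Aligned without gaps at their best offset, they matched at 32 of 54 bases. Ugt1a6a, read by a further probe for the shared part, had ratios of 0.77 and 0.73, which are not independent of the main probe of Ugt1a6b.

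Aldh3a1, an aldehyde dehydrogenase that is a strong AHR target in some epithelia, had no common direction. Its main probe (chr11:61031857-61031916, mm9, plus strand) had intensities of 671 and 804 on replicate 1 and 159 and 142 on replicate 2, control first. The log2 ratios were 0.26 and -0.16 (mean 0.05 ± 0.30, SD, n = 2). A dimmer probe that shares 53 of its 60 bases gave 0.52 and 0.69, with intensities of 9.44 and 15.3 on replicate 2 and an SD over spots of 0.58 there. The probes disagreed on replicate 2, so no change can be read for this gene.

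**Figure D3:**
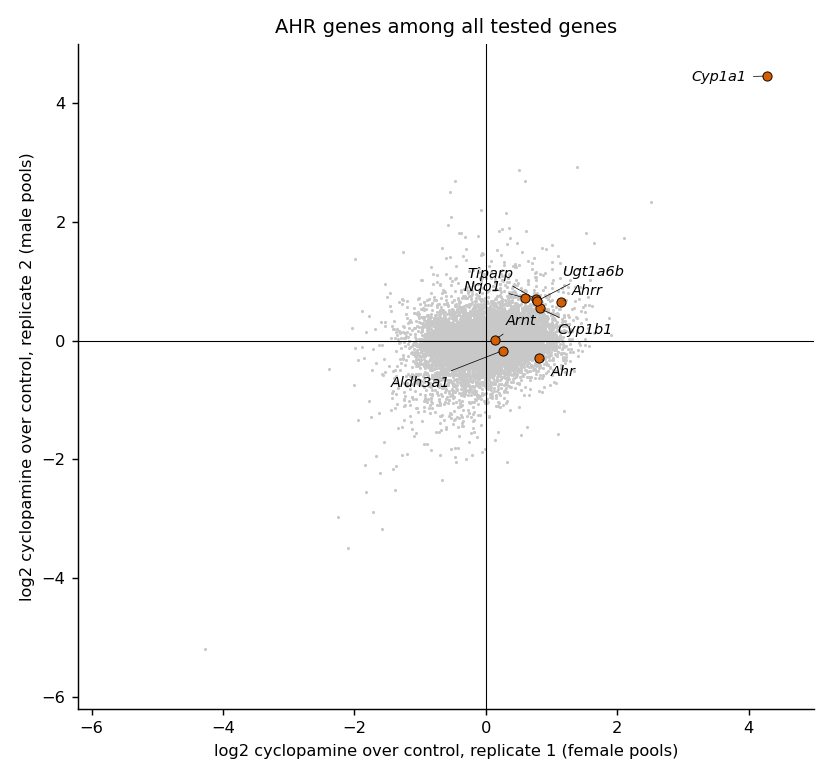
Log2 ratio on replicate 1 against that on replicate 2 for the 19398 tested genes (grey) and the 9 measured genes of the AHR set (orange). Cyp1a1 lies alone at 4.28 and 4.46, while Ahr and Aldh3a1 lie right of 0 on replicate 1 and below 0 on replicate 2.

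The upstream sequences of the genes that were higher on both arrays were searched for the AHR core. RefSeq windows of the 250 bases before the start site (build GRCm38.p6, which differs from that of the probe positions) were at hand for 7 of the 10 genes. Windows of Ahrr, Tiparp, Cyp1a1 and Cyp1b1 are shown. They were picked both by their ratios, which moved in the same direction, and by holding the letters GCGTG on either strand. Sequence farther upstream was not searched. Capitals mark GCGTG or its reverse complement CACGC, each window runs 5′ to 3′ on the strand of the gene, and its last base is the one before the start site.
Cyp1a1, chr9:57697363-57697612, plus strand: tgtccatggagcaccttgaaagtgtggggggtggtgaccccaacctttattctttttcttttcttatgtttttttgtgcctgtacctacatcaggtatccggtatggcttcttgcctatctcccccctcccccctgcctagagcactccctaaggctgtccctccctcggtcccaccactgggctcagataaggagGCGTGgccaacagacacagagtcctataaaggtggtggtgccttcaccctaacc
Ahrr, chr13:74292332-74292581, minus strand: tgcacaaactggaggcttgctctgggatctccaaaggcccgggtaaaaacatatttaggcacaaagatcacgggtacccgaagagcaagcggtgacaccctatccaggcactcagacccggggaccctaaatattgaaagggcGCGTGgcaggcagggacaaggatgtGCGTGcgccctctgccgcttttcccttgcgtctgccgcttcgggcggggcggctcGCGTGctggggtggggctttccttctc
Tiparp, chr3:65528197-65528446, plus strand: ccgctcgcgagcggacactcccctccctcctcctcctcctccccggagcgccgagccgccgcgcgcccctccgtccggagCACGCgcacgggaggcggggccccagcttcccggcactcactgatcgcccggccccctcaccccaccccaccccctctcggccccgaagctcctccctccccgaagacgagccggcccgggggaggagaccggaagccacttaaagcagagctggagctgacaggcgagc
Cyp1b1, chr17:79715062-79715311, minus strand: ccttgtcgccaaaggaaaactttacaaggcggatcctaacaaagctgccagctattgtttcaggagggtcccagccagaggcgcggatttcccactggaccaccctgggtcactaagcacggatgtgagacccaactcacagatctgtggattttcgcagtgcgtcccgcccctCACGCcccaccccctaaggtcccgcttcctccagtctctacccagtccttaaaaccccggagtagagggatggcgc
The Ahrr window held 3 matches, beginning 107, 82 and 27 bases before the start site. Cyp1a1 had 1 at 54 bases, Cyp1b1 1 at 76 bases and Tiparp 1 at 170 bases. Arnt, whose ratios lay near 0, also held 1 (29 bases before the start), while the windows of Nqo1 and Cyp1a2 held none. In all 5 of the 7 windows held the letters, as did 28.2% of 32851 RefSeq windows of the same length, of which 2.77% held 3 or more. The same letters also fit the core of the hypoxia element, so a match does not name the factor. The core of the antioxidant element, TGACNNNGC on either strand, was in the window of Arnt only, and in 10.2% of all windows.

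Other genes of the pathway were taken by role from lists of 27 genes, of which 19 could be tested. The lists were written with earlier results of these data known. The shares are therefore set side by side only to place the values. Here limma compared cyclopamine with control over all tested probes, and called 0.438% of tested genes higher and 0.866% lower. It called 2 of the 19 genes higher and none lower (6 higher and 0 lower at an unadjusted p under 0.05, where 4.24% of all tested genes were higher and 4.81% lower). The median of the mean log2 ratio of the 19 genes was 0.29, against -0.0055 over all tested genes. Ugt1a6a, among the 6, was read by a probe that is not independent of the main probe of Ugt1a6b.

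Both called genes came from the list of further AHR targets. Ereg (epiregulin, a ligand of the EGF receptor) had intensities of 538 (control) and 817 (cyclopamine) on replicate 1, and 134 and 480 on replicate 2. Its log2 ratios of 0.60 and 1.84 were both above 0 (mean 1.22 ± 0.88, SD, n = 2, limma adjusted p = 0.00163). Serpinb2 (plasminogen activator inhibitor 2) read 246 and 792 on replicate 1 and 58.2 and 128 on replicate 2, with ratios of 1.69 and 1.14 (mean 1.41 ± 0.39, SD, n = 2, limma adjusted p = 6.8e-05). Xdh, xanthine dehydrogenase, passed the study's filter with 1.00 and 0.59 but not the test (limma adjusted p = 0.0665). Among 10 tested further targets, 5 were above 0 on both arrays and 1 below 0 on both, and their median was 0.25. Over all tested genes, 28.6% were above 0 on both arrays and 28.9% below. Across 9 alternatives the adjusted p of Ereg ran from 1.43e-05 to 0.992 and that of Serpinb2 from 1.5e-07 to 0.786, and the calls were lost with the rounded series values and with the channels treated as separate samples, that of Ereg also with normexp.

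Of the 7 listed genes of the receptor complex, none was called (1 higher at an unadjusted p under 0.05). Their ratios differed between the arrays, with a median of 0.63 on replicate 1 and -0.0046 on replicate 2. Ncoa1, a coactivator, had 1.09 and -0.25, and Smarca4, the ATPase of a chromatin remodelling complex, had 0.98 and -0.02. With the length trend removed, replicate 1 gave 0.79 for Ncoa1 and 0.74 for Smarca4, genes of 229845 and 88125 bases. Of the 8 listed enzymes of tryptophan and kynurenine metabolism, a source of AHR ligands, 2 were bright enough to test. Afmid had -0.14 and -0.06 and Il4i1 -0.04 and -0.26, and neither was called (limma adjusted p = 0.923 and 0.876). Ido1 and Tdo2, which encode first enzymes of the kynurenine route, were not well above background in any channel. Ido2 was well above background in the control of replicate 1 alone.

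**Figure D4:**
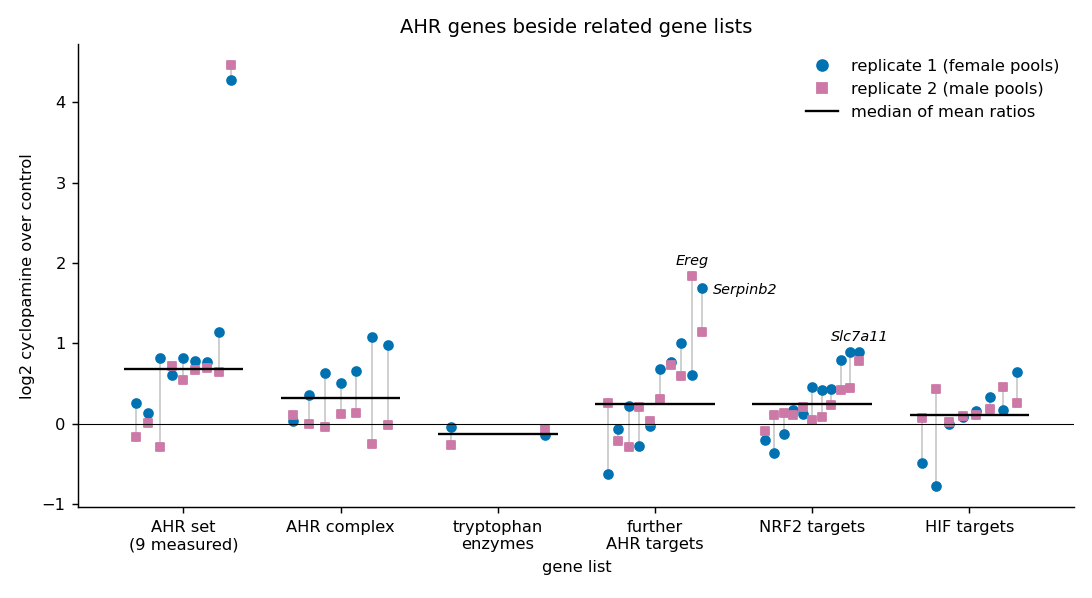
Log2 ratios of cyclopamine over control on replicate 1 (circles) and replicate 2 (squares), joined for each gene, in the AHR set and in 5 related lists. Black bars are medians of the mean ratio, at 0.68 for the AHR set and at 0.32, -0.13, 0.25, 0.25 and 0.11 for the lists from left to right, and genes called by limma in these lists are named.

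Factors that share targets or partners with AHR were read from further lists, also written with earlier results of these data known. Of 11 NRF2 targets, 8 were above 0 on both arrays and 1 below, with a median of 0.25. Of all tested genes, 28.6% were above 0 on both arrays. By limma, 3 of the 11 were higher and 0 lower at an unadjusted p under 0.05. Of all tested genes, 4.24% were higher and 4.81% lower at that limit. The test called Slc7a11 (the cystine transporter) alone, with 0.90 and 0.78 (mean 0.84 ± 0.08, SD, n = 2, limma adjusted p = 0.0434), a call that 6 of 9 alternatives did not return, with an adjusted p of up to 0.992. Gclc had ratios of 0.89 and 0.45 and Txnrd1 of 0.80 and 0.43, and neither was called. Hmox1, the heme oxygenase often read for NRF2, was the 1 target below 0 on both arrays, with ratios of -0.20 and -0.09. None of the 8 HIF targets was called, with none at an unadjusted p under 0.05. Among other bHLH-PAS factors, none of 10 was called (1 higher and 1 lower at an unadjusted p under 0.05), Hif1a having 0.87 and 0.42 and Npas3 -0.52 and -0.71. Of the 9 genes of the receptors CAR, PXR and PPAR and their P450 targets, 3 could be tested, and none was called or reached an unadjusted p under 0.05, with Ppara at 0.65 and -0.05 and Cyp4a10 at -0.05 and 0.55. Cyp3a11 and Cyp2b10, the usual readouts of PXR and CAR, were not well above background.

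Markers of the cells of the ureter were set beside these ratios. Of 8 urothelial markers, among them uroplakins and keratins, none was called (1 higher at an unadjusted p under 0.05), and their summed intensity was 335317 (control) and 363798 (cyclopamine) on replicate 1, and 76986 and 82175 on replicate 2. The 5 smooth muscle markers summed to 273598 and 256721 on replicate 1 and to 77474 and 47690 on replicate 2. None was called. Of the 5, 4 were below 0 on both arrays, with a median of -0.49, and 3 were lower at an unadjusted p under 0.05 by limma. Over all tested genes, 28.9% were below 0 on both arrays, and 4.24% were higher and 4.81% lower at that limit. The 3 lamina propria markers were Aldh1a2, Thy1 and Ptch1, of which limma called Ptch1 lower. They summed to 31677 and 18503 on replicate 1 and to 5807 and 3427 on replicate 2. The study listed all of these markers as reduced with cyclopamine. Ptch1 was also read above as a check of the SHH pathway. Their sum therefore cannot tell fewer lamina propria cells from less RNA of these genes per cell. Leukocyte markers summed to 7819 and 7598 on replicate 1 and to 1271 and 1259 on replicate 2, with Adgre1 above 0 on both arrays (0.21 and 0.19), Cd68 below (-0.24 and -0.23) and Ptprc at 0.39 and -0.05. Markers of keratinised epithelium summed to 4246 and 2607 on replicate 1 and to 523 and 480 on replicate 2. Of hepatocyte markers, Alb and Apoa1 were not well above background, while Ttr was called lower with -1.15 and -1.09 (limma adjusted p = 0.00233). Ttr is also among the genes that the study listed as reduced with cyclopamine. Of kidney tubule markers, Lrp2 alone was measured, with 1.23 and 0.28, and Umod, Slc34a1 and Slc12a1 were not well above background. The part of any of these cells in the ratios of the AHR genes was not tested.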

How the data were processed

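Two-colour Agilent arrays measured RNA of pooled ureters, on replicate 1 and replicate 2. The authors made the deposited scanner files with Agilent Feature Extraction (the headers give version 12.2.0.7, the submitters' processing notes 10.7.3.1), and the deposited spot intensity was background-subtracted and dye-balanced within the array. A deposited log10 ratio, red over green, served to settle direction. The deposited series table holds a rounded score, read as a signed fold change, which served as an alternative. Control spots and outlier spots (2.89% and 3.15%) were left out, and up to 4 spots per probe were averaged on the log2 scale. Ratios were turned to cyclopamine over control.

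Genes were named by accession through RefSeq where it matched, and the probe with the highest mean log2 intensity stood for a gene. Tests covered the 25975 probes with a share of 0.5 or more of spots well above background in the same group on both arrays. limma 3.58.1 in R 4.3.3 was run with dye orientation as sign and no intercept, Benjamini-Hochberg adjustment and a limit of 0.05. With 1 residual degree of freedom the variance comes mostly from the prior shared by all probes, so precision is limited by having 2 arrays. The script was tested on simulated data. Members and lists were chosen with earlier results of these data known. Named were the 10 genes with every probe and, from each list, genes called by limma or past the study's filter, or else up to 2 with the largest mean ratio, and other genes named were chosen after their values were seen. The array files give no exon or UTR for the probes, and upstream windows of Ahr, Ugt1a6b and Aldh3a1 were not used here. A list gene is not reported here and was left out of the counts.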

Additional observations from a re-analysis of the deposited data

Results flagged for a closer look

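Among the 10 genes and the genes that the naming rule took from the pathway lists, cell type markers aside, ratios that pointed in opposite directions in the female pools (replicate 1) and the male pools (replicate 2) were set apart, as the difference between replicate 1 and replicate 2 on the log2 scale. None of these differences was tested, and sex, dye and replicate cannot be told apart. The difference was 1.11 for Ahr and 0.42 for Aldh3a1. In the receptor complex, 4 of 7 genes had opposite ratios. Opposite ratios were common, as 28.6% of all tested genes were above 0 on both arrays and 28.9% below. The difference was 1.34 for Ncoa1 and 1.00 for Smarca4. For Ppara it was 0.70 and for Cyp4a10 -0.59, the only one of these 6 genes that was higher in the male pools.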

How the results depend on the processing

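The count of 7 genes of the AHR set above 0 on both arrays became 6 with the series values and with a gene length trend removed, and otherwise stayed at 7 where both arrays were kept. The count of 4 past the filter became 5 with the series values, which are rounded so that Cyp1b1 and Nqo1 stood at the limit itself, 3 with the length trend removed and 0 with a 2-fold limit, under which 3 genes in all passed as higher and 20 as lower. With a single array (without replicate 1 or without replicate 2) 7 to 9 genes of the set were above 0 and 4 to 6 passed the filter, while 80 to 1362 of all genes passed as higher and 229 to 1743 as lower, against 29 and 86 on both arrays. A control limit of 200 left 55 lower genes. limma called 118 probes higher and 200 lower (1279 and 1161 at an unadjusted p under 0.05). Normexp gave 12 and 42, which moved the share called higher from 37.1% to 22.2%, and 1 pathway gene. No filter on dim probes gave 216 higher probes, and removal of the length trend 62. The series values gave 0 probes in either direction and 0 pathway genes (1051 and 818 probes at an unadjusted p under 0.05), as did the 4 channels as separate samples with no replicate block, which ignores the pairing of channels on an array (274 and 291). The cause was not tested. A gene length was known for all 10 genes of the set but for 78.6% of tested genes, so the length check is void for counts over all genes. With that trend removed, Ugt1a6b had 0.51 and 0.69 and Ahr 0.69 and -0.30. The mean ratio of Arnt changed sign (-0.03), and no mean of Ahrr, Tiparp, Cyp1a1, Cyp1b1, Nqo1 or Ugt1a6b changed sign under any of the 8 alternatives. No probe of the set was dim in 1 group only, so no lower bound was computed. Signal over background limits Cyp1a1, Cyp1a2, the third Arnt probe and the dimmer Aldh3a1 probe.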

Other observations

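Other enzymes of the same chemical roles, grouped by gene symbol after the values were seen and without the 10 genes, gave few calls. Of 41 tested P450 genes, 19 were above 0 on both arrays and 9 below, with a median of 0.04. Of all tested genes, 28.6% were above 0 on both arrays and 28.9% below. limma called Cyp2f2, a P450 known from airway epithelium, as higher, with intensities of 84.2 and 137 on replicate 1 and 11.9 and 29.7 on replicate 2 and log2 ratios of 0.70 and 1.32 (adjusted p = 0.00933). Of 21 tested glutathione S-transferase genes, 11 were below 0 on both arrays and 1 above, with a median of -0.18 (28.9% of all tested genes were below on both). Gstt4 was called lower by limma, at low intensities of 30.2 (control) and 12.7 (cyclopamine) on replicate 1 and 5.94 and 3.25 on replicate 2. Its log2 ratios were -1.25 and -0.87 (limma adjusted p = 0.00499). Of 18 aldehyde dehydrogenase and 6 sulfotransferase genes limma called none (1 higher and 1 lower, and 0 in either direction, at an unadjusted p under 0.05). All 3 tested UDP-glucuronosyltransferase genes were above 0 on both arrays, with a median of 0.49. None of them was called, and 2 were higher at an unadjusted p under 0.05. Ugt1a6a, among these 3, is not independent of the main probe of Ugt1a6b.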
